A study of Homo sapiens with 4 samples.

Results

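Of the 14858 peaks in the YTHDF2 RIP-seq list, 323 lay on a contig instead of on a numbered or sex chromosome or the mitochondrial genome. They were taken as every peak whose sequence name has the extra fields of a contig name, set off by a low line (_), whatever its feature class, and they fell on 70 contigs and 184 genes. In 64 of these contigs, with 300 peaks, the name marks an alternative version of a chromosome region. Another 4 contigs, with 14 peaks, belong to a chromosome but have no position on it, and 2 contigs, with 9 peaks, have no chromosome. The other 14535 peaks lay on the main chromosomes and serve as the comparison, above all the 130 of them that belong to the same genes.

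HCCLM3 is a human hepatocellular carcinoma line with a high metastatic capacity. RNA bound to YTHDF2 was recovered by RNA immunoprecipitation (RIP) in 2 libraries and compared with 2 Input libraries of total RNA, to find YTHDF2 targets in a study of how YTHDF2 and the coactivator CRTC2 act together on m6A-modified mRNA. All 4 libraries are labelled as wild-type HCCLM3, no treatment is named for either group, and nothing says whether replicates came from separate cultures. The authors deposited 1 peak list for all libraries, so no value exists per library, the depth of each library is unknown, no comparison can be set against the spread between replicates, and no test over samples was possible.

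YTHDF2 is a cytoplasmic protein that binds N6-methyladenosine (m6A) in mRNA, mostly near stop codons and in 3' UTRs, and is best known for speeding the decay of the bound mRNA. Alternative contigs of the human reference give further haplotypes of regions that differ strongly between people, such as the major histocompatibility complex (MHC) on chromosome 6 and the leukocyte receptor complex on chromosome 19. Most of their genes are therefore present in the reference more than once, on the main chromosome and on 1 or more contigs, and a read from such a gene can match several places. How the aligner and peak caller were set to treat such reads is not stated in the labels or notes used here.

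A peak's fold enrichment is the authors' RIP to background ratio at its summit. The number of RIP fragments at the summit and the scaled background behind that ratio were solved from the deposited fold and p of each peak. Where Input gave no higher estimate, the caller fell back on a genome-wide background, which was 0.533 fragments in this list, and 1 scaled Input fragment was worth 0.68. Intervals below are exact 95% binomial (Clopper-Pearson) intervals. They cover counting error only, and peaks of one gene or contig share their source.

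Some contig peaks began at the very start of a transcript. The start-site sequences of 3 such genes are shown because their contig peaks passed a q of 0.01 and began close to the listed start, so that a reader can see where the RNA begins. The letters are RefSeq's for the main chromosome in GRCh38.p14, not those of the contigs, each read 5' to 3' on the gene's strand. The 70 bases before the start are in lower case and the first 30 transcribed bases in capitals.

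AATF, chr17:36948884-36948983, plus strand: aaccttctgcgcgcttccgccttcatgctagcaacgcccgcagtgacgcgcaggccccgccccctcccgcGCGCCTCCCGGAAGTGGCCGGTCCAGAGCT
CHCHD10, chr22:23767943-23768042, minus strand: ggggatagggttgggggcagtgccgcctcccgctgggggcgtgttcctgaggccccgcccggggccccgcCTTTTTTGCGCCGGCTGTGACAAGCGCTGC
ABCF1, chr6:30571372-30571471, plus strand: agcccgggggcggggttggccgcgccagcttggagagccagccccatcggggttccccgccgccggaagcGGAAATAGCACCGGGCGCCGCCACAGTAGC

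The contig peak of AATF, which codes for an apoptosis-antagonizing transcription and ribosome biogenesis factor, began 37 bp after the listed start and had a fold of 13.6 from 68 fragments. That of CHCHD10, a mitochondrial intermembrane-space protein, began 30 bp after the start and had a fold of 8.55 from 25 fragments. That of ABCF1, an ATP-binding cassette protein of translation initiation, began 25 bp after the start, with a fold of 5.87 from 8 fragments. Across all 95 contig peaks of the promoter class, 70 overlapped the listed transcript and 3 covered its start.

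Contig peaks were thin but tall. Their fold enrichment had a median of 3.26, with quartiles of 2.61 and 4.76 and a range of 1.48 to 35.2, against a median of 2.40 and a maximum of 24.8 on the main chromosomes. The median log2 fold was 0.44 higher on contigs (95% interval 0.31 to 0.50, from the order of the contig values). A fold of at least 4 was reached by 111 contig peaks, 34.4% (interval 29.2 to 39.8), against 7.12% of all peaks in the list. A q of 0.01 or less was reached by 134 contig peaks, 41.5% (interval 36.1 to 47.1), against 37.3% of all peaks, so on that measure the contig share was near the background.

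The height came with few fragments and a low background. Contig peaks had a median of 6 RIP fragments at the summit over a background of 0.680, and main-chromosome peaks 13 fragments over 3.40. The background was the genome-wide one in 112 contig peaks, 34.7% (interval 29.5 to 40.1), and in 2461 main-chromosome peaks, 16.9%. The most frequent contig peak was 3 fragments over the genome-wide background, a fold of 2.61, which 50 of the 323 shared, and 46 contig peaks had a −log10 q of 0. Width did not set the sets apart, with medians of 342 bp on contigs and 349 bp on the main chromosomes.

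**Figure D1:**
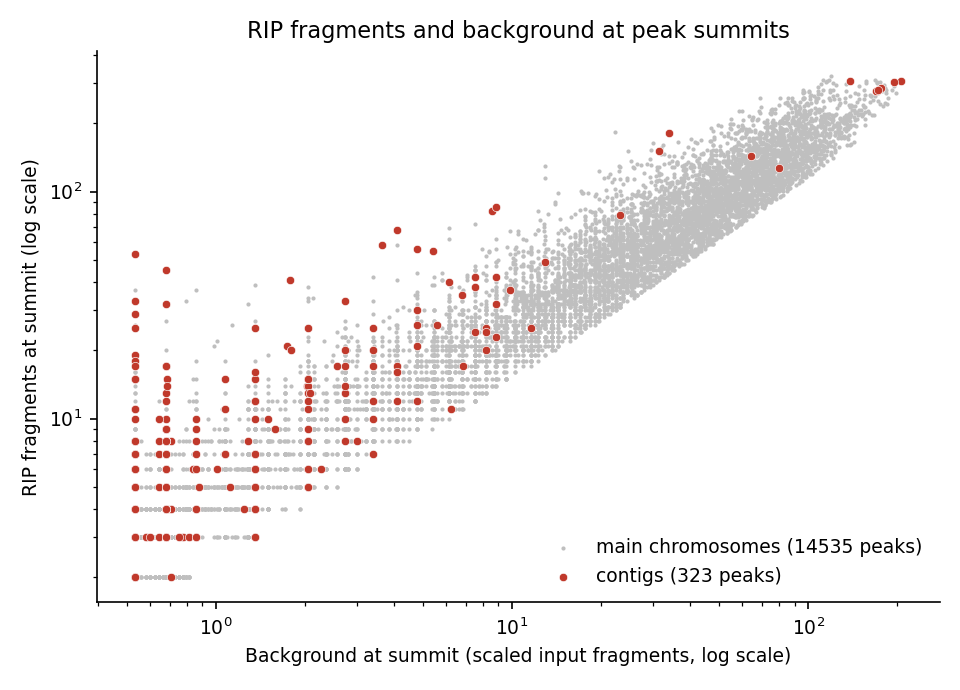
RIP fragments at the summit against the scaled background there, both on log axes, for contig peaks over main-chromosome peaks. The contig peaks crowd at the left, where 208 of 323 have a background under 1 fragment, and the main-chromosome peaks extend to high backgrounds.

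The difference was larger, not smaller, among well-covered peaks. With 10 or more fragments, 99 contig peaks had a median fold of 5.07 and 7761 main-chromosome peaks one of 2.105. The sets were still unlike in cover, with medians of 20 and 57 fragments over backgrounds of 2.72 and 26.5. In these sets 68.7% of the contig peaks and 7.65% of the main-chromosome peaks reached a fold of 4. A background under 1 fragment lay beneath 23 of these 99 contig peaks, 23.2% (interval 15.3 to 32.8), but beneath 50 of the 7761 on the main chromosomes, 0.644%. With 20 or more fragments, the medians were 4.74 over 50 contig peaks and 1.995 over 6471 main-chromosome peaks. The 23 peaks on contigs without a position or chromosome had a lower median fold, 2.61, and 2 of them reached 4. Their median log2 fold was 0.12 above that of main-chromosome peaks (interval −0.40 to 0.44), and 8 of the 23 were rRNA peaks.

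Exons and promoters held larger shares of the contig peaks than of all main-chromosome peaks, and 3' UTRs and introns smaller ones. The differences carry no test, only the counting intervals. Exons held 128 contig peaks, 39.6% (interval 34.3 to 45.2), against 20.35% on the main chromosomes. The promoter class held 95, or 29.4% (24.5 to 34.7), against 16.9%. The 3' UTR class held 51, or 15.8% (11.99 to 20.2), against 27.85%, and introns 19, or 5.88%, against 21.75%. Intergenic peaks numbered 25, or 7.74%, against 11.95%, and 5 peaks lay in 5' UTRs. The 130 main-chromosome peaks of the same genes were also most often in exons, then in the promoter class, with fewer in 3' UTRs and introns. This order of classes was therefore not particular to the contigs. No shares or intervals were computed for that set.

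**Figure D2:**
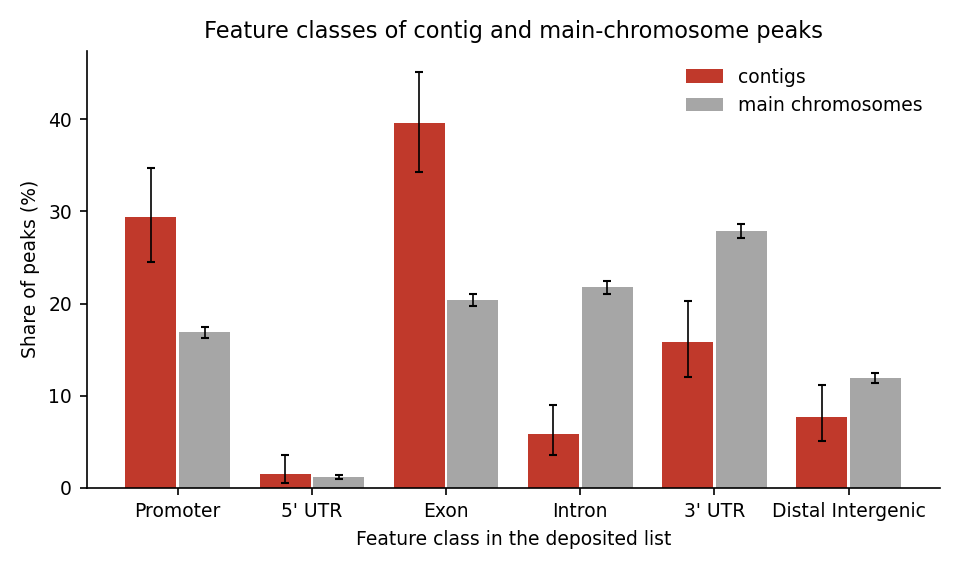
Share of peaks in each feature class of the deposited list, in percent, for contigs and for main chromosomes (peaks of all genes), with exact 95% binomial intervals as bars. Exon and promoter shares are higher on contigs, and 3' UTR and intron shares are lower.

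Medians by class differed in size. In exons the median fold was 3.28 on contigs and 2.46 on the main chromosomes, with 6 and 20 fragments. In the promoter class it was 3.50 against 2.33, with 7 and 50 fragments, and in 3' UTRs 2.98 against 2.12, with 5 and 44 fragments. In introns the median was 2.61 in both sets. By gene type, 247 contig peaks belonged to protein-coding genes, 25 to transcribed pseudogenes, 21 to miRNA genes, 19 to lncRNA genes, 8 to rRNA genes and 3 to snoRNA genes. The miRNA names come from the nearest start site: 0 of those 21 peaks overlapped a listed transcript of hairpin size, under 200 bp.

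The highest contig peak was in the promoter class of PPP1R18, a regulatory subunit of protein phosphatase 1 that binds actin, at positions 1939219 to 1939840 of chr6_GL000255v2_alt. It had 53 RIP fragments over the genome-wide background, a fold of 35.2 with −log10 q at 79.1, and lay inside the listed transcript. No main-chromosome peak was assigned to PPP1R18.

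RPS9, which codes for a small-subunit ribosomal protein, had 5 contig peaks on 2 haplotypes of the leukocyte receptor complex, all past a q of 0.01. On chr19_GL949746v1_alt its 3' UTR peak (182248 to 182681) had 45 fragments and a fold of 27.4, its peak in exon 4 of 5 had 15 fragments and a fold of 10.4, and its promoter-class peak had 8 fragments and a fold of 5.87. On chr19_GL949752v1_alt the 3' UTR peak (182426 to 182838) had 86 fragments but a background of 8.84, and so a fold of 8.84, and the peak in exon 4 of 5 had 33 fragments and a fold of 9.14. The haplotype with more RIP fragments was thus the one with the lower 3' UTR fold. RPS9 had no main-chromosome peak.

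IFNGR2, the second chain of the interferon gamma receptor, peaked in exon 6 of 8 on chr21_GL383581v2_alt (27290 to 27752) with 32 fragments and a fold of 19.6. PARN, a poly(A)-specific ribonuclease that shortens mRNA tails, peaked in exon 22 of 24 on chr16_KI270853v1_alt. It had 25 fragments over the genome-wide background, a fold of 16.96. DLG5, a scaffold protein of cell junctions, reached 13.0 on a contig of chromosome 10 with 19 fragments. BDP1, a subunit of the RNA polymerase III factor TFIIIB, had 8 peaks listed under it on 2 contigs of chromosome 5. The best fold was 12.4 from 18 fragments on one and 7.83 from 11 fragments on the other. On the latter contig, the peaks 131863 and 137289 bp from its start were intergenic, outside its listed transcript, and carry its name only by nearest start. Except for PARN, none of these genes had a main-chromosome peak.

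Several strong peaks need care with their gene name. A 3' UTR peak on chr5_KI270792v1_alt with a fold of 15.1 and 41 fragments is listed under MIR4635, whose start is 11854 bp away. The peaks listed under B3GALT4, a galactosyltransferase, had folds of 12.7 on chr6_GL000251v2_alt (58 fragments) and 11.7 on chr6_GL000252v2_alt (17 fragments). The summit of the first lay inside the listed transcript of its neighbour RPS18, also a ribosomal protein gene, and outside that of B3GALT4. A peak of 56 fragments and a fold of 9.90 on chr22_KI270879v1_alt is listed under C22orf15, while its summit lay inside the listed transcript of CHCHD10. Among the 147 contig peaks of exon or intron class, the exon's or intron's gene differed from the nearest-start gene in 66, and the former was used.

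Among the contig peaks with the lowest q, some were less tall but rested on more fragments. RBFOX2, a splicing regulator, had 182 fragments over a background of 34.0 in the promoter class on chr22_KI270876v1_alt, with −log10 q at 63.9 for a fold of 5.23. MIF, a secreted inflammatory cytokine, had 151 fragments over 31.3, with −log10 q at 47.6 for a fold of 4.71. AATF had a background of 4.08 and a −log10 q of 51.8. TAF15, an RNA-binding protein of the FET family, had 82 fragments over 8.57, with −log10 q at 45.2 for a fold of 8.68.

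Of the 184 genes with a contig peak, 61 (33.2%, interval 26.4 to 40.5) also had a main-chromosome peak. These 61 genes had 107 contig peaks and 130 main-chromosome peaks, and the 2 sets had close medians of fold, fragments and background. The median fold was 3.32 in each. A fold of 4 was reached by 37.4% of the contig peaks (interval 28.2 to 47.3) and 37.7% of the main-chromosome peaks (29.35 to 46.6). A q of 0.01 or less was reached by 44.9% (35.2 to 54.8) and 51.5% (42.6 to 60.4), and the genome-wide background lay beneath 28.0% and 34.6%. Median fragments were 6 and 7, the median background was 0.680 in each, and a background under 1 lay beneath 58.9% and 60.8%. The other 14405 main-chromosome peaks had a median fold of 2.39, 13 fragments and a background of 3.40, 6.23% of them reached a fold of 4, and a background under 1 lay beneath 35.9%. High fold over low background was therefore measured for these genes in both places, on the contig and on the main chromosome.

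**Figure D3:**
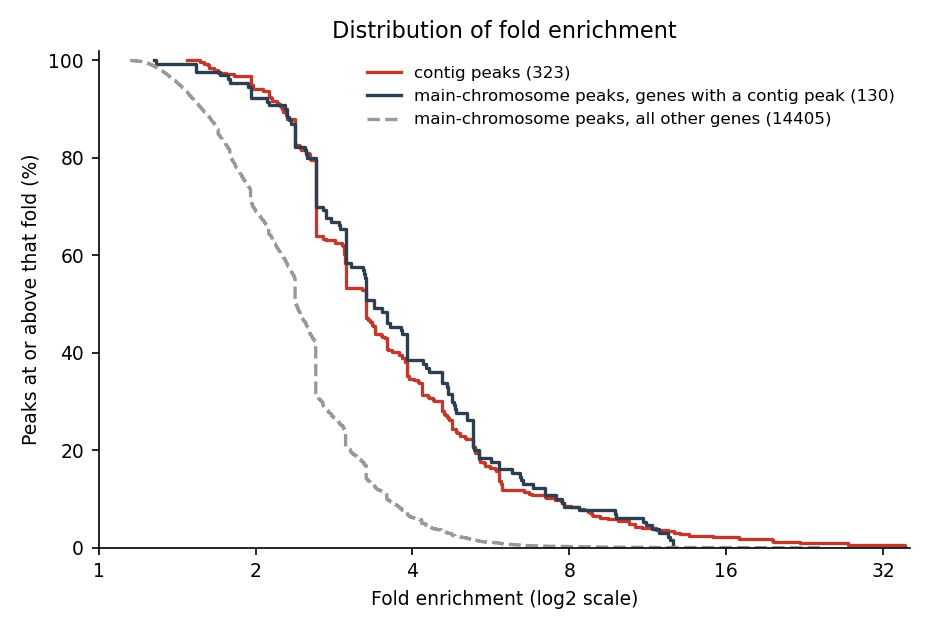
Percent of peaks at or above each fold enrichment (log2 axis) for the 323 contig peaks, the 130 main-chromosome peaks of genes that also have a contig peak, and the other 14405 main-chromosome peaks. The first and second curves run close together and both lie to the right of the third.

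The same held with 10 or more fragments: the median fold was 4.94 over 41 contig peaks of these genes, 4.68 over 54 main-chromosome peaks of the same genes and 2.10 over the 7707 main-chromosome peaks of other genes. A background under 1 lay beneath 19.5%, 18.5% and 0.519% of these peaks. Which processing step or property of the genes goes with this was not tested.

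Gene by gene, neither location was the higher one. Each gene's highest-fold contig peak was set against its highest-fold main-chromosome peak. The 2 peaks of a gene can lie at different positions in it, and 40 of the 61 pairs were of the same feature class. The contig value was higher in 28 genes and the main-chromosome value in 33. The median log2 difference, contig minus main, was −0.24 (interval −0.42 to 0.49), its SD over genes was 0.96 and its range −2.07 to 2.09. Differences beyond 1 occurred in 21 genes, 10 toward the contig and 11 toward the main chromosome. Both best peaks passed a q of 0.01 in 22 genes, the contig peak alone in 15, the main-chromosome peak alone in 16 and neither in 8.

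**Figure D4:**
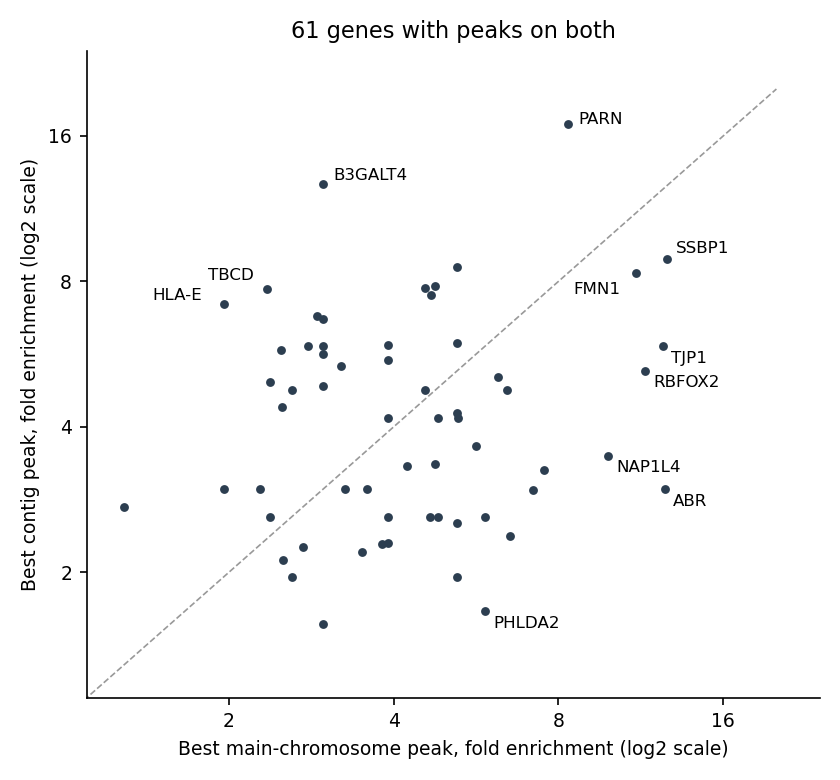
Best contig fold against best main-chromosome fold for the 61 genes with a peak in both places by assigned name, on log axes, with the line of equal fold. Points lie on both sides of the line, from the peaks listed under B3GALT4 at the contig end to ABR at the main-chromosome end.

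The largest differences toward the contig set a better-covered peak against one of few fragments. The peaks listed under B3GALT4 had 58 fragments and a fold of 12.7 on the contig and 4 fragments and a fold of 2.98 on chromosome 6, a log2 difference of 2.09. As given above, that contig summit lay in the listed transcript of RPS18. The RefSeq span of RPS18 held 1 main-chromosome summit, with the same 4 fragments and fold of 2.98, and that of B3GALT4 held none. By position both peaks of the pair thus lay in RPS18, although they are listed under B3GALT4. HLA-E, a non-classical MHC class I molecule read by natural killer cells, had 10 fragments and 7.17 on the contig and 2 fragments and 1.96 on chromosome 6. TBCD, a tubulin-folding cofactor, had 15 fragments and 7.73 in exon 4 of 39 on the contig. On chromosome 17 it had 3 fragments and 2.34 in exon 36 of 39. The pseudogene UBE2Q2P2 was of another kind, with 15 fragments over 1.36 on the contig (6.78) and 185 fragments over 63.2 on chromosome 15 (2.90). The peaks listed under MIR10393 had 40 fragments and 5.76 on the contig and 64 fragments over 25.2 on chromosome 15, a fold of 2.49.

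Toward the main chromosome, ABR, a GTPase regulator, had 20 fragments and a fold of 12.5 on chromosome 17 and 4 fragments and 2.98 on its contig, a log2 difference of −2.07. For PHLDA2, an imprinted growth-restraining gene, the peak listed on chromosome 11 had 8 fragments over the genome-wide background, a fold of 5.87. The contig peak had 11 fragments over 6.21, a fold of 1.66. The chromosome 11 summit lay outside the RefSeq span of PHLDA2, so this pair shares a gene by its listed name and not by overlap. NAP1L4, a histone chaperone gene next to PHLDA2, had 69 fragments and 9.83 on chromosome 11 and 6 fragments and 3.49 on the same contig. The multidrug transporter ABCC1 had folds of 6.52 on chromosome 16 and 2.38 on the contig, from 9 and 3 fragments. GART, an enzyme of purine synthesis, had 5.22 and 1.96, from 7 and 2 fragments. At such counts a few fragments move either fold, and the 2 peaks of a gene can lie in different parts of it. In ABCC1 an exon peak on the contig stood against a promoter-class peak. In GART a 3' UTR peak on the contig stood against an exon peak.

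PARN and RBFOX2 were well covered on both sides. PARN had 25 fragments and 16.96 in exon 22 of 24 on the contig. On chromosome 16 it had 13 fragments and 8.33 in exon 7 of 24, another part of the gene. Both peaks passed a q of 0.01. RBFOX2 had its highest main-chromosome fold, 11.5 from 34 fragments, in exon 2 of 13. Its promoter-class peak there, the same class as the contig peak of 182 fragments and fold 5.23, had 66 fragments over 14.96 and a fold of 4.199. CHCHD10 had 25 fragments and 8.55 on the contig and 22 fragments and 5.23 on chromosome 22, at different positions. The contig peak began 30 bp after the listed start, and the chromosome 22 peak was classed as 1-2 kb from a start. The contig peak listed under C22orf15, with its summit in the CHCHD10 transcript, had 56 fragments and a fold of 9.90. Counted from the CHCHD10 start, that peak and the chromosome 22 peak covered overlapping distances, so by position it is the nearer partner.

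The same numbered exon was called in both places for 4 exon contig peaks, each in a different gene. Of the 128 exon contig peaks, 46 belonged to genes with a main-chromosome peak and 43 to genes with one in an exon, so a match was possible for these alone. A match also needed both peaks to be numbered on the same transcript. An exon numbered on different transcripts in the 2 places, as in ABR and PDXDC1, could not match, so shared exons can be undercounted. MTMR10, a myotubularin-related protein, had 9 fragments and a fold of 5.95 on the contig and 5 fragments and 3.57 on chromosome 15 in exon 8 of 16. PPP1R10, a nuclear subunit of protein phosphatase 1, had 3 fragments in both places in exon 9 of 20, with folds of 2.61 and 2.38. GFUS, an enzyme of GDP-fucose synthesis, had 7 fragments and 4.76 against 3 fragments and 2.61 in exon 6 of 11. SMN1, needed for snRNP assembly, had 5 fragments and 2.54 on the contig in exon 4 of 8, and on chromosome 5 the same exon carried 2 peaks of 17 and 7 fragments, with folds of 4.84 and 5.22. SMN1 has the near-identical copy SMN2, so its peaks on chromosome 5 and the contigs cannot be assigned to one gene with certainty. The same applies to GTF2H2, a subunit of the repair and transcription factor TFIIH, which has copies in that region.

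The other 123 genes had contig peaks and no main-chromosome peak by name. RefSeq places 121 of them on a main chromosome, and 82 of the 123 are protein-coding. A main-chromosome summit given to another gene lay inside the span of 7 of them, while 114 had none in their span. The median of their best contig folds was 3.57, and 58 of the 123 had a contig peak with a q of 0.01 or less, against 37 of the 61 genes with peaks in both places.

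The contig chr17_KI270857v1_alt held the largest number of such genes. It carried 38 peaks on 15 genes, of which 20 peaks had a q of 0.01 or less and 17 a fold of at least 4. Of the 15 genes only ACACA, the acetyl-CoA carboxylase that starts fatty acid synthesis, had main-chromosome peaks, 6 on chromosome 17 with a best fold of 3.91 beside 7 on the contig with a best fold of 5.51. None of the other 14 had a main-chromosome summit in its span. Besides AATF and TAF15 they included MRPL45, a mitochondrial ribosomal protein (10.4 from 15 fragments), GGNBP2, a zinc finger protein (7.20 from 16 fragments), ZNHIT3, a factor of snoRNP assembly (6.55 from 10 fragments), and PSMB3, a proteasome core subunit (4.84 from 17 fragments). By contrast, on chr16_KI270853v1_alt 10 of 15 genes with a contig peak also had a main-chromosome peak.

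Members of gene groups that had a contig peak are best read against all genes with one. Of these, 95 of 184 (51.6%) had a passing one (q at most 0.01) and 33.2% a main-chromosome peak. Neither share applies to counts over all members of a list, for which no share over all genes was computed. Of 87 listed MHC-region genes outside the antigen-presenting families, 20 had a contig peak, 11 of them a passing one, a share near that background, and 6 had a main-chromosome peak, 2 of them among the 20. Their best contig folds had a median of 4.37. PPP1R11, an inhibitor of protein phosphatase 1, had 33 fragments and a fold of 22.2 on chr6_GL000256v2_alt, 29 fragments and 19.6 on chr6_GL000254v2_alt and 3 fragments and 2.38 on chr6_GL000253v2_alt. These peaks began 2809, 140 and 2962 bp after the listed start, so the second is at another position than the first and the third. BRD2, a bromodomain reader of acetylated histones, had 17 fragments and 10.7 in the 3' UTR on chr6_GL000256v2_alt and 3 fragments and 2.61 on chr6_GL000255v2_alt, where the peak lay upstream of the listed transcript and did not overlap it.

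Of 13 MHC class I and presentation genes, 3 had a contig peak and 1 a passing one, the HLA-E peak given above. TAP2, a peptide transporter subunit, had a fold of 3.91 from 5 fragments. Of 11 class II genes, 0 had a contig peak and 1 had a main-chromosome peak.

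Across contigs of the same region, 18 genes had peaks on 2 or more contigs, 10 of them on chromosome 6. The best peaks of a gene on different contigs can lie at different positions in it. The highest minus the lowest log2 fold among a gene's contigs had a median of 0.31 (interval 0.13 to 1.18), and exceeded 1 in 5 genes: PPP1R11 (3.22), BRD2 (2.04), RPS9 (1.58), ABCF1 (1.30) and TUBB (1.18), the last a beta-tubulin. ABCF1 was the gene on most contigs, 4, with best folds from 2.38 to 5.87. TUBB had best folds of 2.61, 3.94 and 5.92 on 3 contigs. BAG6, a chaperone of tail-anchored proteins, kept to a narrow range of 2.29 to 2.61, and PPP1R10 to 2.12 to 2.61, with 3 or 4 fragments each.

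**Figure D5:**
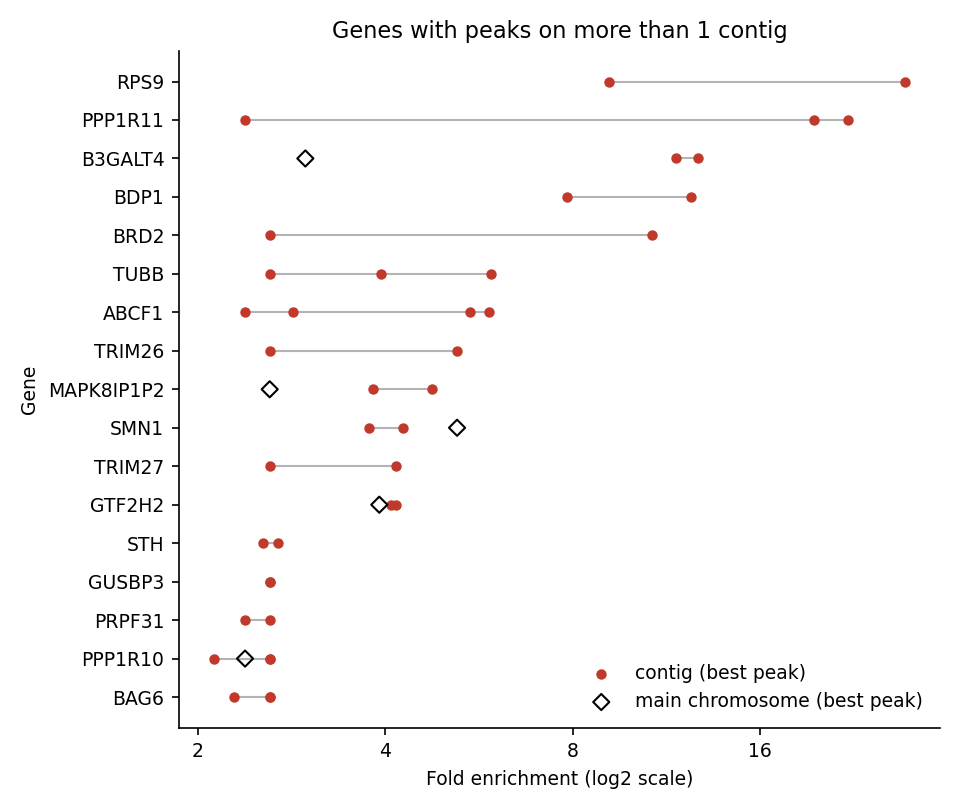
Fold enrichment (log axis) of the best peak per contig for 17 of the 18 genes with peaks on 2 or more contigs, with the best main-chromosome peak where the gene has one by name. PPP1R11, BRD2 and RPS9 are spread most, and the other genes span at most 1.30 on the log2 scale.

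In the leukocyte receptor complex region, 7 of 48 housekeeping genes had a contig peak, 3 of them a passing one. A main-chromosome peak was found for 12 of the 48, none of them among the 7. Besides RPS9, CNOT3, a subunit of the CCR4-NOT deadenylase that YTHDF2 recruits, reached 4.17 from 6 fragments, as did LENG8. RDH13, a mitochondrial retinol dehydrogenase, had 3.91 from 5 fragments and missed the threshold. None of the 27 immune receptor genes of the region had a peak in either place. In the inversion region of chromosome 17 around MAPT, 5 of 15 genes had a contig peak and 1 of them a passing one. Among the others, WNT3, STH, PLEKHM1 and KANSL1 had best contig folds of 2.98, 2.69, 2.61 and 2.53, all with a q over 0.01. Of the 15 genes, 4 had a main-chromosome peak, 3 of them a passing one, and 2 had peaks in both places. These 2 were KANSL1 and PLEKHM1, with best main-chromosome folds of 5.22 and 4.81, both passing.

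Ribosomal RNA genes stood at the other end of the range. All 8 contig peaks given to 4 rRNA genes, on chr22_KI270733v1_random and chrUn_GL000220v1, passed that q at folds of 1.48 to 2.23, from 127 to 306 fragments over backgrounds of 63.9 to 207 fragments. RNA28SN2 peaks of similar cover on chromosome 21 had folds of 1.54 to 1.77 with 225 to 304 fragments, beside an intergenic one of 4 fragments and 2.98. The rRNA copies are near-identical, so which copy gave the reads cannot be told.

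A peak list holds no level of expression, so the labelled cell type could be looked at only through peaks. None of 12 hepatocyte secreted-protein genes, 4 epithelial genes or 9 blood, endothelial and stromal genes had a contig peak. Whether any contig carries these genes was not looked up, so their lack of contig peaks says nothing about the cell type. On the main chromosomes 3, 1 and 4 genes of these lists, in that order, had a peak, and in 2, 1 and 1 of them it passed the same q. No share over all genes was computed to set beside these counts, so they neither bear out nor question the label.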

How the data were processed

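The labels give 2 YTHDF2 RIP and 2 Input libraries of wild-type HCCLM3 cells, prepared with a RIP kit and low-input stranded libraries of total RNA, per the labels' protocols. The reads were aligned with HISAT2 to hg38 and peaks called with MACS2, per the submitters' processing notes, with versions, options and the way of combining libraries all not given in the sources used here. Each row of the deposited list holds the peak's position and width, fold enrichment (the authors' ratio of RIP to background), −log10 p, −log10 q and score, per the file headers. For all 14858 peaks the authors' score was the −log10 p times 10 without its decimals, and it was left aside. These are the peaks' own values from the authors and serve to describe, rank and filter within the list.

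Fragments k and background b at each summit were solved from fold = (k + 1) / (b + 1) and the Poisson p, with a largest misfit of 0.0001893 in −log10 p. Tested on 2000 made-up peaks, the solution recovered 99.95%. It assumes the caller's default arithmetic and is an inference. A peak took the gene of its exon or intron, otherwise the deposited nearest-start gene. Gene numbers of all 323 contig peaks matched RefSeq (GRCh38.p14), whose gene spans overlapped the list's for 99.25% of 8683 genes. Log2 of the fold was taken from the deposited values, with no pseudocount. Named genes were those with the 10 highest folds and 10 highest −log10 q on contigs, the 5 on most contigs, the 5 largest differences in each direction and up to 4 members of each gene list by contig fold. Genes outside it, such as CHCHD10 and those of the chromosome 17 contig, were chosen after their values were seen, as was the summary of main-chromosome peaks of other genes. Some named genes are not reported here. The members and lists were chosen with earlier results of these data known. Python 3.11.15, pandas 2.3.3 and scipy 1.17.1 were used.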

Additional observations from a re-analysis of the deposited data

How the results depend on the processing

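Over 50 recomputed values, 36 stayed within the interval of the value reported and 14 moved. The 41.5% share of contig peaks with a q of 0.01 or less became 50.8% at a q of 0.05, 26.01% at a −log10 q of at least 5, 47.8% on random and unplaced contigs only and 51.6% with 1 peak per gene. The log2 difference of median fold, 0.44, became 0.12 on random and unplaced contigs only, 0.55 with 1 peak per gene, 1.06 at a q of 0.01 or less, 1.27 with 10 or more fragments and 0.51 over exon and UTR peaks only. The 3' UTR share became 4.35% on random and unplaced contigs. The genome-wide background share became 17.4% there, 20.9% at a q of 0.01 or less and 12.1% with 10 or more fragments. The share of genes with peaks in both places became 24.2% at a q of 0.01 or less. The cause of these shifts was not tested. The median difference within genes ranged from −0.28 to 0.21 over its 10 alternatives and changed sign only with 10 or more fragments (18 genes), inside the reported interval. The exon and UTR setting for the fold, the 10-fragment setting for the background and the gene-span setting were chosen after seeing the data.

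No paired analysis was possible because the libraries share replicate numbers but the list holds no value per library. Depth per library is unknown, and 129 contig peaks rest on 4 or fewer fragments.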
